A study of Mus musculus with 24 samples.

Results

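Hmgcs1, Idi1, Fdps, Sqle, Lss, Cyp51, Insig1 and Srebf2 are 8 genes of cholesterol synthesis and its feedback control, followed here by RNA sequencing in 24 libraries of mouse embryonic stem cells (mESCs). They were taken by gene symbol from the 22609 symbols of the count files, and all 8 were present and were among the 16280 genes that passed the filter on low counts. Of these 8, 6 encode enzymes of the synthesis route and the other two encode regulators. The set holds no receptor or carrier of cholesterol uptake, which were followed in a list of their own.

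The libraries fall into 8 groups of 3. All cells are E14TG2a, a line of the 129/Ola strain, kept feeder-free and grown in serum with LIF, the cytokine that keeps mESCs pluripotent. RA shMed12, RA shCdk8 and RA shNMC cells carry stably transfected short hairpins and spent 24 h in 1e-06 M all-trans retinoic acid (RA) without LIF. Pluripotent mESC groups carry shMed12, shCdk8, shRing1b or shNMC, a hairpin with no mammalian target, or no hairpin (mESC control). Med12 and Cdk8 belong to the kinase module of Mediator, the coactivator that links transcription factors to RNA polymerase, and Ring1b, encoded by Rnf2, is a ubiquitin ligase of the Polycomb repressive complex PRC1. The labels give neither the number of hairpins or clones per target nor the promoter of the hairpins. They do not say that replicates are separate cultures, so p-values measure only the spread between these samples. That spread was estimated within groups over all 24 libraries, not from the groups compared alone. RA and the loss of LIF cannot be told apart.

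Cells make cholesterol from acetyl-CoA through mevalonate, farnesyl diphosphate and squalene. When sterols run low in the endoplasmic reticulum, Scap carries the membrane-bound factor SREBP2, the product of Srebf2, to the Golgi, where proteases free its active part to switch on genes of synthesis and uptake, Insig1 among them. When sterols are plentiful, Insig proteins hold Scap and SREBP2 back, so Insig1 is both a target and a brake of the pathway.

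Promoter sequences of 6 of the 8 genes were in the RefSeq table used here (build GRCm38.p6); Sqle and Fdps were not. The counts were made on another build, mm9, so these coordinates serve for the sequences only. Shown are Hmgcs1 (chr13:119690101-119690350, plus strand), the one promoter with the sterol response element letters, Lss (chr10:76531355-76531604, plus strand) and Cyp51 (chr5:4104698-4104947, minus strand), a pair that changed together in several comparisons, and Insig1 (chr5:28071162-28071411, plus strand). Insig1 was called lower with shMed12 in mESCs, where no enzyme among the 8 genes was, although 3 of 15 other synthesis genes were. Each line holds the 250 bases before the gene start, 5′ to 3′, and capitals mark matches on either strand to the sterol response element letters TCANNCCAC, the box named after CCAAT, the GC box GGGCGG or the E-box CACGTG, which reads the same on both strands.
Hmgcs1: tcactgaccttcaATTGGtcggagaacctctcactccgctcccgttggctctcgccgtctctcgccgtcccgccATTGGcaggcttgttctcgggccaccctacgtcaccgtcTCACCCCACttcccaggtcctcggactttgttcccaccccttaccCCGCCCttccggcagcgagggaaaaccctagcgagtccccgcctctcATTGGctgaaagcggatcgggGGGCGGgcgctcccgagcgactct
Lss: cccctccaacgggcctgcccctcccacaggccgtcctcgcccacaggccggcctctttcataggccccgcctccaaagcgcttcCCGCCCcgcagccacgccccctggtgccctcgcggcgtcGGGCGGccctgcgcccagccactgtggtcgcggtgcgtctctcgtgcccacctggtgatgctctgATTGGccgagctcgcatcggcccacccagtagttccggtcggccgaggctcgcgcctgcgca
Cyp51: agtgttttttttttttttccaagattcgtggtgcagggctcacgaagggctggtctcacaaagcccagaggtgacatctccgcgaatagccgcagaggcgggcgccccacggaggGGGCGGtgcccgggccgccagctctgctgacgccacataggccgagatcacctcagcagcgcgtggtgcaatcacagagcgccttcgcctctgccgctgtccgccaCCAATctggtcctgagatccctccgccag
Insig1: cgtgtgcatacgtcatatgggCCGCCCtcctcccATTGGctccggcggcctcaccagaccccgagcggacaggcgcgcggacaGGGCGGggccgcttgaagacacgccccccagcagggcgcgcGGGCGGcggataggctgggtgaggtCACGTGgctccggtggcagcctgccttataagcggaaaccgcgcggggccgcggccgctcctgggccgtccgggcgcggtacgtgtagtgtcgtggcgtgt
TCANNCCAC occurred in 1 of the 6 promoters, that of Hmgcs1, and in 3.52% of all 32851 promoters of the table. CCAAT and GGGCGG each occurred in 6 of 6, against 33.8% and 32.7% of all promoters. CACGTG occurred in 1 of 6, that of Insig1, against 6.02% of all. These matches describe letters in a window of fixed length, not bound sites.

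A library held 27.4 to 34.1 M gene counts among the 6 libraries of mESC shRing1b and mESC control and 37.8 to 57.3 M among the other 18. The 6 stood apart from the 18, with 20.0% to 21.7% of entries from reads with several alignments against 44.1% to 49.1% in the 18. The hairpin targets were checked first, in CPM, the counts per 1 M gene counts of a library after TMM scaling. Med12 stood at 35.2 to 46.2 CPM in mESC shMed12 libraries, against 129 to 140 CPM in mESC shNMC (139.6 at the highest), and at 38.8 to 61.2 CPM in RA shMed12, against 94.1 to 144 CPM in RA shNMC. Cdk8 stood at 10.7 to 15.2 CPM in mESC shCdk8, against 50.1 to 56.1 CPM in mESC shNMC, and at 8.21 to 12.4 CPM in RA shCdk8, against 42.6 to 48.1 CPM in RA shNMC. Rnf2 stood at 52.4, 64.2 and 207 CPM in the mESC shRing1b libraries, against 221 to 302 CPM in mESC control, so the Rnf2 level of the library labelled shRing1b replicate 3 does not match that label. Calls on shRing1b and the order of group means are given with and without it. The summed CPM of 8 pluripotency markers, among them Pou5f1 and Nanog, was 3248 to 3486 in mESC shMed12 and 4957 to 5719 in the other mESC groups.

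Srebf2 was the most abundant of the 8 and Idi1 the least. Per length of the longest transcript, mESC shNMC cells held 39.5 CPM per kb of Srebf2, 29.8 of Sqle, which encodes squalene epoxidase, and 20.1 of Cyp51, the lanosterol demethylase. Insig1 followed with 15.6 CPM per kb, Fdps (farnesyl diphosphate synthase) with 14.7 and Lss (lanosterol synthase) with 10.6. Hmgcs1, the HMG-CoA synthase at the head of the mevalonate route, and Idi1, the isomerase of isopentenyl diphosphate, stood far lower at 0.813 and 0.753 CPM per kb, with 58 to 230 and 39 to 132 counts per library. For Fdps 86.4% and for Idi1 30.5% of all 50-base windows of the transcript also occur in transcripts of other genes, mostly processed pseudogenes and, for Fdps, the gene model Gm43738, so their counts are uncertain. Hmgcs1 shares 13.6% of its windows with an antisense gene, Lss 4.35% with an antisense gene, Cyp51 3.17%, mostly with Akap9 on the opposite strand, and Insig1 2.49% with a pseudogene. Sqle and Srebf2 share 0%. Reads of opposite strands cannot be told apart here, because the sources used here do not say whether the counting used strand. The reason for the low counts of Hmgcs1 and Idi1 was not tested.

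Across the 8 groups Insig1 varied most and Srebf2 least, with or without the library labelled shRing1b replicate 3. The highest group mean was 3.28 times the lowest for Insig1, 2.08 times for Cyp51, 1.95 times for Lss and 1.88 times for Idi1. For Fdps the ratio was 1.71, for Sqle 1.66, for Hmgcs1 1.61 and for Srebf2 1.34. Without that library the ratio was 2.53 for Insig1, 1.63 for Cyp51 and 1.62 for Lss, so that Idi1 and not Cyp51 came second, and it was 1.32 for Srebf2. Insig1 ran from 22.8 ± 1.5 CPM in RA shMed12 and 23.8 ± 1.2 CPM in mESC shMed12 to 74.6 ± 36.6 CPM in mESC shRing1b (mean ± SD, n = 3), a mean that was 57.6 CPM without replicate 3. Sqle ran the other way at the top of its order, with 122 ± 6.6 CPM in RA shMed12, 109 ± 28.0 CPM in mESC shRing1b and 107 ± 7.6 CPM in mESC shMed12, and its lowest mean was 73.7 ± 4.6 CPM in RA shNMC. Without replicate 3 mESC shRing1b averaged 95.3 CPM of Sqle and came after mESC shMed12. In the order of Sqle levels with all libraries, mESC shMed12 and the next group, mESC shCdk8, did not overlap, nor did mESC shNMC and the last group, RA shNMC. In the order of Insig1, RA shCdk8 stood apart from RA shNMC, and RA shNMC from mESC shMed12. Cyp51 showed such gaps below mESC shCdk8 and above RA shNMC, Hmgcs1 below RA shMed12 and Idi1 below mESC shCdk8. Only groups next to each other in the order of means were compared, and libraries of other groups can cross these gaps. For Cyp51, mESC shNMC replicate 1 (87.3 CPM) lay within mESC shCdk8 (86.6 to 89.9 CPM). For Hmgcs1, mESC shRing1b replicate 3 (4.25 CPM) lay above all RA shMed12 libraries. For Idi1, mESC shRing1b replicate 1 (1.31 CPM) lay within RA shNMC (1.13 to 1.45 CPM). With all libraries every group overlapped with its neighbours in the order for Fdps, Lss and Srebf2. Without shRing1b replicate 3, RA shMed12 stood apart from the next group for Fdps and Sqle. For Fdps it had 30.4 to 34.7 CPM, against 24.4 and 27.9 CPM in mESC shRing1b. For Sqle it had 114.9 to 127 CPM, against 98.2 to 111.5 CPM in mESC shMed12.

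**Figure D1:**
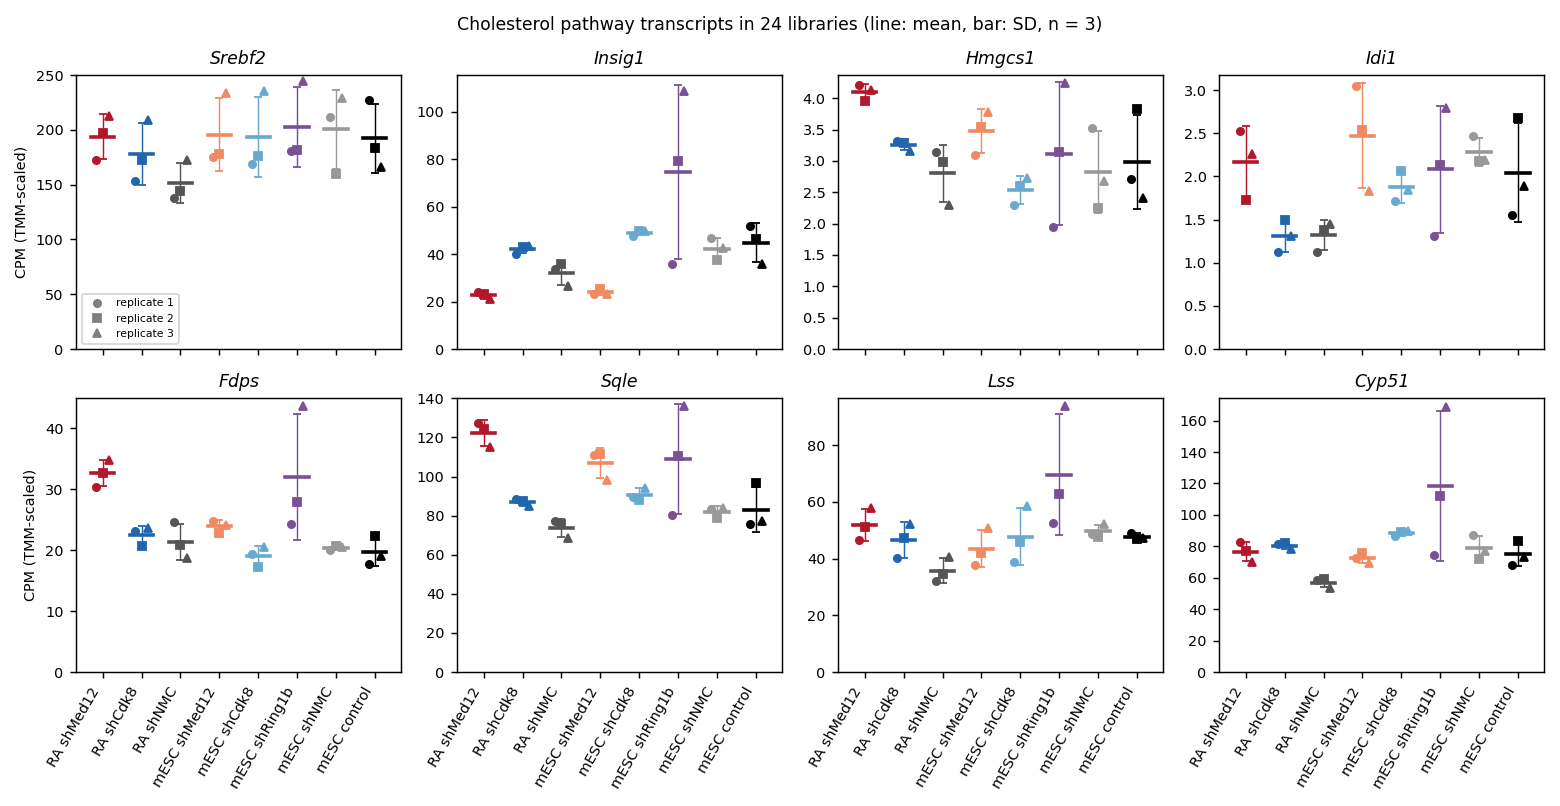
TMM-scaled CPM of the 8 genes in every library (y axis, linear, from 0), by group (x axis), with the mean as a line and the SD as a bar (n = 3 per group) and 1 symbol per replicate number. Insig1 sits at 21.2 to 25.2 CPM in all 6 shMed12 libraries, below every other library of the plot, and the mESC shRing1b libraries spread widely for Cyp51, Insig1, Lss and Fdps.

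After RA, 5 of the 8 genes were higher in shMed12 cells than in shNMC cells and 0 were lower (edgeR quasi-likelihood test, Benjamini-Hochberg adjusted p under 0.05), where 21.3% of all genes tested were called higher and 20.6% lower, 41.9% in all. The 5 were Sqle, Fdps, Idi1, Lss and Cyp51, enzymes from the middle and late steps of the route. Sqle had 127, 124 and 115 CPM in RA shMed12 libraries, against 77.2, 75.6 and 68.5 CPM in RA shNMC libraries. The groups lay far apart, with a log2 change of 0.73 (SE 0.13, edgeR adjusted p = 8.0e-05), or 1.66-fold. Fdps had 30.4, 32.6 and 34.7 CPM in RA shMed12, against 24.5, 20.8 and 18.6 CPM in RA shNMC. All 3 RA shMed12 libraries again lay above all 3 of RA shNMC, with a log2 change of 0.61 (SE 0.15, edgeR adjusted p = 0.0027). Both calls held when any 1 library was left out, with an edgeR adjusted p of 0.0011 at most for Sqle and 0.020 at most for Fdps.

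The other three calls in that comparison were less firm. Idi1 had 2.53, 1.73 and 2.26 CPM in RA shMed12, against 1.13, 1.38 and 1.45 CPM in RA shNMC (log2 0.72, SE 0.25, edgeR adjusted p = 0.026). Lss had 46.7, 51.1 and 57.7 CPM in RA shMed12, against 31.9, 34.5 and 40.5 CPM in RA shNMC (log2 0.54, SE 0.17, edgeR adjusted p = 0.014). Cyp51 had 82.6, 76.8 and 70.2 CPM in RA shMed12, against 58.3, 59.0 and 53.6 CPM in RA shNMC (log2 0.43, SE 0.17, edgeR adjusted p = 0.045). For each of these genes the groups did not overlap. Cyp51 did not pass when RA shMed12 replicate 1 or 2, or any RA shNMC replicate, was left out (edgeR adjusted p 0.080 to 0.17), and Idi1 did not pass without RA shMed12 replicate 1 or 3 or RA shNMC replicate 1 or 2 (0.058 to 0.12). Lss did not pass without RA shMed12 replicate 3 or RA shNMC replicate 1 or 2 (0.058 to 0.066). Hmgcs1 had 4.21, 3.96 and 4.12 CPM in RA shMed12, against 3.15, 2.98 and 2.29 CPM in RA shNMC, and did not pass with edgeR (log2 0.54, 95% interval 0.08 to 1.01, edgeR adjusted p = 0.056).

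The regulators did not pass in RA shMed12 cells. Insig1 had 24.0, 23.1 and 21.2 CPM in RA shMed12, against 33.7, 36.0 and 26.5 CPM in RA shNMC. The groups did not overlap, but the log2 change of -0.49 (95% interval -0.97 to -0.02) did not pass (edgeR adjusted p = 0.087). Srebf2 had 172, 197 and 213 CPM in RA shMed12, against 138, 144 and 173 CPM in RA shNMC, with overlapping groups (log2 0.36, 95% interval 0.01 to 0.70, edgeR adjusted p = 0.095).

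In pluripotent mESCs shMed12 went with 1 of the 8 genes higher and 1 lower, where 20.6% of all genes tested were called higher and 19.9% lower, 40.5% in all. The 2 calls were Insig1, lower, and Sqle, higher. Insig1 had 23.1, 25.2 and 23.2 CPM in mESC shMed12, against 46.8, 37.4 and 42.4 CPM in mESC shNMC, so that the highest shMed12 library lay well below the lowest of shNMC. The log2 change was -0.82 (SE 0.23, edgeR adjusted p = 0.0064), or 0.565-fold, and it passed without any 1 library (edgeR adjusted p at most 0.030). Sqle had 111, 112 and 98.2 CPM in mESC shMed12, against 83.6, 79.0 and 83.7 CPM in mESC shNMC (log2 0.38, SE 0.13, edgeR adjusted p = 0.019). That call was lost without mESC shMed12 replicate 1 or 2 or mESC shNMC replicate 2 (edgeR adjusted p 0.057 to 0.064). The other six had log2 changes from -0.19 for Lss to 0.30 for Hmgcs1, with every edgeR adjusted p at 0.24 or more.

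Within single libraries the CPM of Sqle was 5.30 to 5.43 times that of Insig1 in RA shMed12 and 4.23 to 4.81 times in mESC shMed12. In the other 6 groups this ratio was 1.25 to 2.58, below every shMed12 library. This ratio is a description of the calls above, since the pair was taken for its opposite directions.

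Whether the shMed12 effect differed between states was tested as an interaction. All 8 differences, RA minus mESC, were positive on the log2 scale, from 0.24 for Hmgcs1 to 0.73 for Lss. The same 8 were positive in the interaction of shCdk8 and RA, and both interactions subtract the same change of shNMC cells. With edgeR 0 of 8 passed for shMed12, where 1.74% of all genes tested passed with a positive and 3.30% with a negative difference, 5.04% in all. At an unadjusted p under 0.05 there were 2, Lss and Cyp51, and DESeq2 called 0. Lss came closest (95% interval 0.23 to 1.23, edgeR adjusted p = 0.091). Fitted on the 4 groups alone, 2 of 8 passed, and 2237 of all genes. In the shMed12 line itself RA cells had 1 of the 8 higher and 0 lower than mESCs, where 19.6% of all genes tested were called higher and 17.5% lower, 37.1% in all. That was Fdps, with 30.4, 32.6 and 34.7 CPM in RA shMed12, against 24.8, 22.8 and 24.1 CPM in mESC shMed12 (log2 0.45, SE 0.15, edgeR adjusted p = 0.025). It was lost without replicate 2 or 3 of either group (edgeR adjusted p 0.058 to 0.096).

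Markers of other cell types moved with shMed12 in both states. The summed level of 9 trophectoderm markers, such as Krt18 and Hand1, was 703 to 922 CPM in RA shMed12, against 45.6 to 56.8 CPM in RA shNMC, and 591 to 768 CPM in mESC shMed12, against 22.2 to 28.4 CPM in mESC shNMC. In each state 8 or 9 of the 9 were called higher: 8 after RA and 9 in mESCs, where 21.3% and 20.6% of all genes tested were called higher. The summed level of 8 fibroblast markers was 437 to 483 CPM in RA shMed12, against 110 to 148 CPM in RA shNMC (109.9 at the lowest), and 452 to 522 CPM in mESC shMed12, against 95.4 to 119 CPM in mESC shNMC, with 5 of the 8 called higher and 1, Thy1, lower in each state. The 10 markers of extraembryonic endoderm summed to 66.9 to 73.4 CPM in RA shMed12, against 121 to 143 CPM in RA shNMC, and to 32.2 to 36.8 CPM in mESC shMed12, with Ttr at 0 in all 3 libraries, against 75.0 to 100.4 CPM in mESC shNMC. The 8 pluripotency markers summed to 1535 to 1658 CPM in RA shMed12, against 2255 to 2705 CPM in RA shNMC. The 5 neural markers summed to 121 to 126 CPM in RA shMed12, against 75.0 to 84.7 CPM in RA shNMC, with Nes higher and Sox1 and Tubb3 lower, and to 123 to 128 CPM in mESC shMed12, against 67.6 to 74.0 CPM in mESC shNMC, with Nes higher and Sox1 lower. The part of these markers in the changes of the cholesterol genes was not tested, and in bulk libraries fewer cells of a type and less RNA per cell cannot be told apart.

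**Figure D2:**
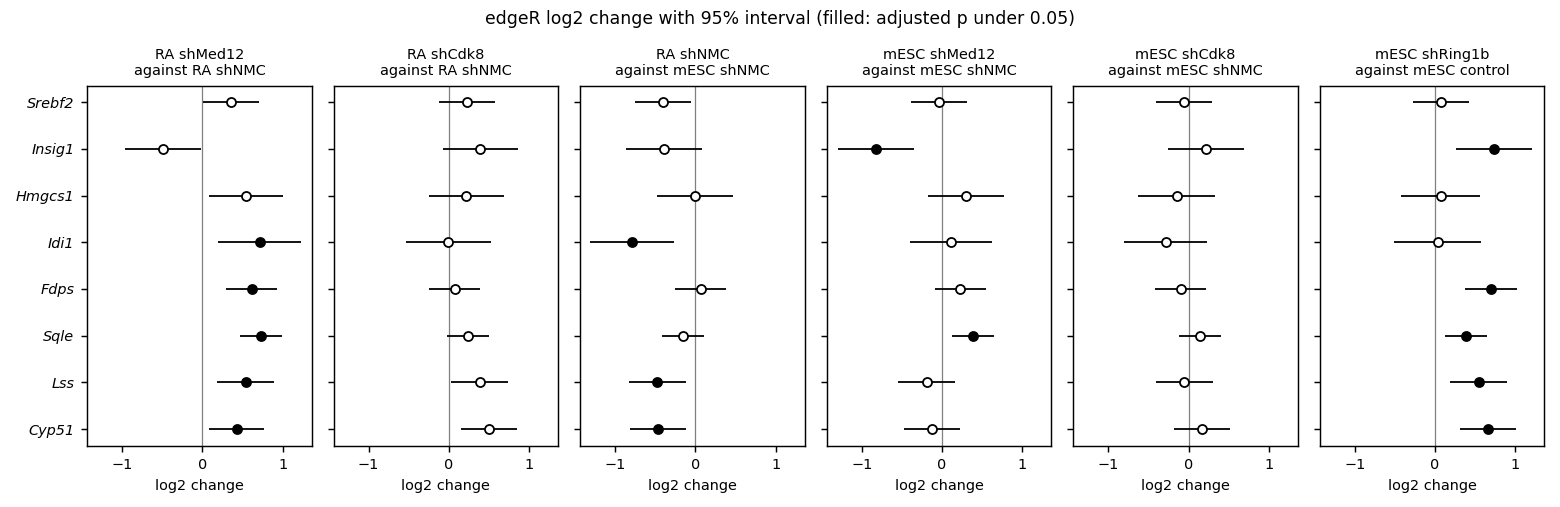
Log2 change of each of the 8 genes (x axis) in 6 comparisons, with 95% intervals as lines and filled points where the edgeR adjusted p is under 0.05. Filled points lie right of 0 for 5 genes in RA shMed12 against RA shNMC and in mESC shRing1b against mESC control, and left of 0 for 3 genes in RA shNMC against mESC shNMC.

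In shNMC cells RA went with 3 of the 8 genes lower and 0 higher, where 24.1% of all genes tested were called lower and 27.3% higher, 51.4% in all. The 3 were Idi1, Lss and Cyp51. Idi1 had 1.13, 1.38 and 1.45 CPM in RA shNMC, against 2.47, 2.18 and 2.19 CPM in mESC shNMC (log2 -0.79, SE 0.25, edgeR adjusted p = 0.012). Lss had 31.9, 34.5 and 40.5 CPM in RA shNMC, against 48.7, 47.7 and 52.2 CPM in mESC shNMC (log2 -0.48, SE 0.17, edgeR adjusted p = 0.024). Cyp51 had 58.3, 59.0 and 53.6 CPM in RA shNMC, against 87.3, 72.1 and 77.2 CPM in mESC shNMC (log2 -0.47, SE 0.17, edgeR adjusted p = 0.023). In none of these genes did the groups overlap. Idi1 did not pass without RA shNMC replicate 1 (edgeR adjusted p = 0.057), Lss without RA shNMC replicate 1 or 2 or mESC shNMC replicate 3 (0.069 to 0.097), and Cyp51 without RA shNMC replicate 2 or 3 or mESC shNMC replicate 1 (0.059 to 0.095).

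Srebf2 lay at the edge of the threshold. It had 138, 144 and 173 CPM in RA shNMC, against 212, 160 and 229 CPM in mESC shNMC, with overlapping groups (log2 -0.40, SE 0.17, edgeR adjusted p = 0.0503). It passed without RA shNMC replicate 3 (edgeR adjusted p = 0.031) or mESC shNMC replicate 2 (0.017). Insig1 (log2 -0.39, 95% interval -0.87 to 0.08) and Sqle (-0.15, -0.42 to 0.11) did not pass, although for both genes all 3 RA libraries lay below all 3 mESC libraries. Fdps (0.07, -0.25 to 0.38) and Hmgcs1 (-0.00, -0.48 to 0.47) overlapped. The summed level of the 8 pluripotency markers was 2255 to 2705 CPM in RA shNMC, against 5661 to 5714 CPM in mESC shNMC, and its part in these changes was not tested.

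With shCdk8 none of the 8 genes passed in either state. In RA shCdk8 against RA shNMC 0 of 8 were called by edgeR, 2 had an unadjusted p under 0.05 (Lss and Cyp51) and 1 was called by DESeq2 (Cyp51), where edgeR called 4.10% of all genes tested higher and 3.64% lower, 7.73% in all. Cyp51 had 81.4, 82.1 and 78.0 CPM in RA shCdk8, against 58.3, 59.0 and 53.6 CPM in RA shNMC, a gap wider than the spread of either group (log2 0.50, 95% interval 0.15 to 0.85, edgeR adjusted p = 0.073, DESeq2 adjusted p = 0.047). Lss had 40.0, 47.2 and 52.3 CPM in RA shCdk8, against 31.9, 34.5 and 40.5 CPM in RA shNMC (log2 0.38, edgeR adjusted p = 0.18). Residuals of same-numbered libraries correlated between these groups (0.287 to 0.537), but the labels give no pairing. With the number as a block over all 24 libraries Lss passed (edgeR adjusted p = 0.033). That block also covers groups without such a correlation. The 8 pluripotency markers summed to 1594 to 1998 CPM in RA shCdk8, against 2255 to 2705 CPM in RA shNMC, with 7 of 8 called lower, and the 10 extraembryonic endoderm markers to 180 to 235 CPM (180.2 at the lowest), against 121 to 143 CPM, with 0 of 10 called. Their part in the values of Lss and Cyp51 was not tested. In mESC shCdk8 against mESC shNMC edgeR and DESeq2 called 0 of 8 and 0 had an unadjusted p under 0.05, where edgeR called 2.24% of all genes tested higher and 1.42% lower, 3.66% in all. Those log2 changes ran from -0.28 for Idi1 to 0.22 for Insig1, and the widest intervals reached -0.80 and 0.69.

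In the shCdk8 line RA against mESC also gave 0 of 8 with edgeR and with DESeq2, and 0 at an unadjusted p under 0.05, where 26.7% of all genes tested were called higher and 25.1% lower, 51.7% in all. The log2 changes ran from -0.51 for Idi1 (95% interval -1.04 to 0.01) to 0.36 for Hmgcs1 (-0.12 to 0.83). The interaction of shCdk8 and RA gave 0 of 8 by both tools and at an unadjusted p under 0.05, where 0.0369% of all genes tested passed. All 8 differences were positive, from 0.10 for Sqle to 0.44 for Lss, as they were in the shMed12 interaction. The fall of Idi1, Lss and Cyp51 in shNMC cells is therefore not shown to differ from the smaller values of the shCdk8 line.

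Set directly against each other after RA, shMed12 and shCdk8 differed in 4 of the 8 genes, 3 higher and 1 lower in shMed12, where 21.3% of all genes tested were called higher and 20.1% lower, 41.4% in all. Sqle (log2 0.49, SE 0.13, edgeR adjusted p = 0.0034) and Fdps (0.54, SE 0.15, edgeR adjusted p = 0.0072) were higher in RA shMed12. Insig1, with 24.0, 23.1 and 21.2 CPM in RA shMed12, against 40.1, 43.0 and 43.3 CPM in RA shCdk8, was lower (log2 -0.89, SE 0.23, edgeR adjusted p = 0.0037). Idi1 was higher (0.72, SE 0.25, edgeR adjusted p = 0.024), a call lost without replicate 1 or 3 of either group (0.056 to 0.12). Lss (0.16, 95% interval -0.20 to 0.51) and Cyp51 (-0.07, -0.42 to 0.27), which both lines held above RA shNMC on average, did not pass between the lines. In mESCs the lines differed in 1 of 8, again Insig1 (log2 -1.04, SE 0.23, edgeR adjusted p = 0.0011), where 18.4% of all genes tested were called higher and 17.4% lower, 35.8% in all. Insig1 held in both states without any 1 library.

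In mESC shRing1b against mESC control 5 of the 8 genes were called higher and 0 lower, where 9.68% of all genes tested were called higher and 5.42% lower, 15.1% in all. Cyp51 had 74.6, 112 and 169 CPM in mESC shRing1b, against 68.3, 83.5 and 73.4 CPM in mESC control. Insig1 had 35.9, 79.3 and 109 CPM in mESC shRing1b, against 52.1, 46.5 and 36.0 CPM in mESC control. Both genes ranged from control level in replicate 1 to far above it in replicate 3, the library whose Rnf2 does not match its label. Their log2 changes were 0.66 (SE 0.17, edgeR adjusted p = 0.012) and 0.73 (SE 0.23, edgeR adjusted p = 0.034). Lss had 52.5, 62.7 and 93.6 CPM in mESC shRing1b, against 49.1, 46.8 and 47.2 CPM in mESC control (log2 0.55, edgeR adjusted p = 0.036). Sqle (log2 0.39, edgeR adjusted p = 0.040) showed the same order of libraries, with 80.3, 110.3 and 136 CPM in mESC shRing1b.

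Without the library labelled shRing1b replicate 3, 1 of the 8 was left. Fdps had 24.4, 27.9 and 43.7 CPM in mESC shRing1b, against 17.8, 22.3 and 19.0 CPM in mESC control, and passed both with that library (log2 0.70, SE 0.16, edgeR adjusted p = 0.0048) and without it (0.41, 0.026). Cyp51 stood at a log2 change of 0.32 without it (edgeR adjusted p = 0.072), Insig1 at 0.36 (0.23), Lss at 0.27 (0.22) and Sqle at 0.20 (0.22). Over all genes, 23.7% were called without it, against 15.1% with it. Calls of Lss and Sqle were also lost without mESC control replicate 1 or 3, those of Insig1 and Lss without mESC control replicate 2, that of Insig1 without control replicate 3, and those of Sqle and Insig1 without mESC shRing1b replicate 2 (edgeR adjusted p 0.058 to 0.16). Fitted on the 6 libraries alone, 0 of 8 passed, and 0 of all genes. The calls above use a spread estimated over all 24 libraries. Replicates of mESC shRing1b differed more than those of any other group (mean chi-square per gene 50.1 to 126).

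The mESC shRing1b libraries also differed in markers. The 10 extraembryonic endoderm markers summed to 176, 1145 and 52.0 CPM in mESC shRing1b replicates 1, 2 and 3, against 101 to 159 CPM in mESC control, so the library with the highest cholesterol genes had the lowest sum. The 9 trophectoderm markers summed to 85.6, 119 and 68.2 CPM in mESC shRing1b, against 23.0 to 34.7 CPM in mESC control, with 8 of 9 called higher, and 6 of 9 without replicate 3. The 8 fibroblast markers summed to 115, 147 and 238 CPM in mESC shRing1b, against 116 to 172 CPM in mESC control, with 3 of 8 called higher, and 4 of 8 without replicate 3. Of the extraembryonic endoderm markers 3 of 10 were called higher, and 8 of 10 without replicate 3. Of all genes tested 9.68% were called higher with replicate 3 and 14.0% without it. The part of these markers in the result was not tested.

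**Figure D3:**
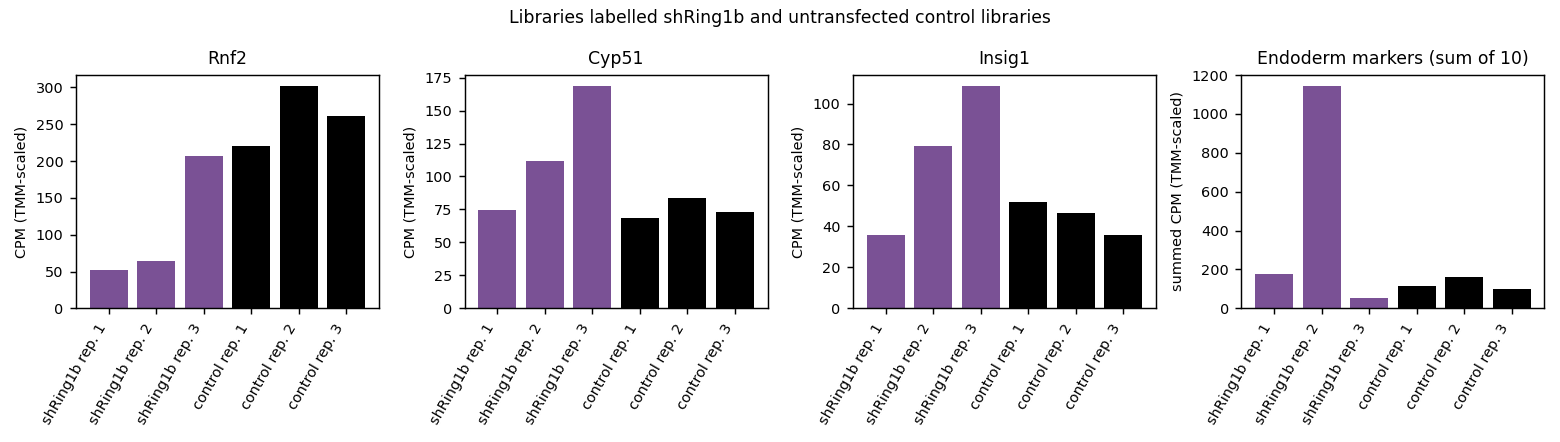
TMM-scaled CPM of Rnf2, Cyp51 and Insig1, and summed CPM of 10 extraembryonic endoderm markers, in the 3 mESC shRing1b libraries and the 3 mESC control libraries (bars from 0, 1 library each). Replicate 3 of mESC shRing1b has 207 CPM of Rnf2, near the controls, and the highest Cyp51 and Insig1 at 169 and 109 CPM.

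Against mESC shNMC, a control among the other 18 libraries, the same 5 genes were higher in mESC shRing1b and 0 lower, where 12.9% of all genes tested were called higher and 7.36% lower, 20.2% in all. Their log2 changes were 0.41 for Sqle, 0.65 for Fdps, 0.82 for Insig1, 0.49 for Lss and 0.59 for Cyp51, and 1, Fdps, was left without the library labelled shRing1b replicate 3. Without that library 28.5% of all genes tested were called, and 16.6% of all genes tested were called higher. The counts of Fdps are uncertain, since 86.4% of its windows also occur in other transcripts. Fitted on mESC shRing1b and mESC shNMC alone, 0 of 8 passed, and 8 of all genes. Sqle and Lss were also lost without any 1 of the mESC shNMC libraries, Cyp51 without mESC shNMC replicate 2 or 3, Insig1 without mESC shNMC replicate 2 and Sqle without mESC shRing1b replicate 2 (edgeR adjusted p 0.052 to 0.13). The 2 controls themselves, mESC shNMC against mESC control, showed 0 of 8 called by edgeR or DESeq2 and 0 at an unadjusted p under 0.05, with log2 changes from -0.09 to 0.16. Of all genes 0.00614% were called between them. The control hairpin and the set of libraries (6 or 18) cannot be told apart there.

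The rest of the synthesis route was followed in 15 further enzyme genes. In RA shMed12 against RA shNMC 7 were higher and 1 lower, where 21.3% of all genes tested were called higher and 20.6% lower. Their median log2 change was 0.33, against -0.00 over all genes tested. Among the higher genes Sc5d, a sterol desaturase, had a log2 change of 0.71 and Fdft1, the squalene synthase, one of 0.40, while Hsd17b7, a ketoreductase of the route, was lower (-0.59). Fdft1 is uncertain, since 30.7% of its windows also occur in other transcripts, mainly Ctsb on the opposite strand. With 1 library left out the higher calls numbered 3 to 5 of the 15.

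In the other comparisons fewer of these 15 passed. In mESC shMed12 2 were higher and 3 lower, where 20.6% of all genes tested were called higher and 19.9% lower. Among the lower ones were Tm7sf2 (log2 -0.71), a sterol reductase, and Hsd17b7 (-0.38). With 1 library left out 1 or 2 were higher and 1 to 3 lower. In RA shMed12 against mESC shMed12 3 were higher, among them Dhcr7 (0.66) and Sc5d (0.41), and 0 lower. Of all genes tested 19.6% were called higher and 17.5% lower there. In RA shCdk8 against RA shNMC 2 were higher, Sc5d (0.48) among them, and 0 to 2 with 1 library left out, where 4.10% of all genes tested were called higher with all libraries. RA in shNMC cells moved 0 of the 15 with edgeR or DESeq2, and 0 at an unadjusted p under 0.05, with log2 changes from -0.34 to 0.22. There edgeR called 51.4% of all genes tested. In mESC shRing1b against mESC control 3 were higher, among them Mvd (0.59) and Dhcr7 (0.79), where 9.68% of all genes tested were called higher and 5.42% lower. Without the library labelled shRing1b replicate 3 the counts were 3 higher and 1 lower, where 14.0% of all genes were called higher and 23.7% in all.

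**Figure D4:**
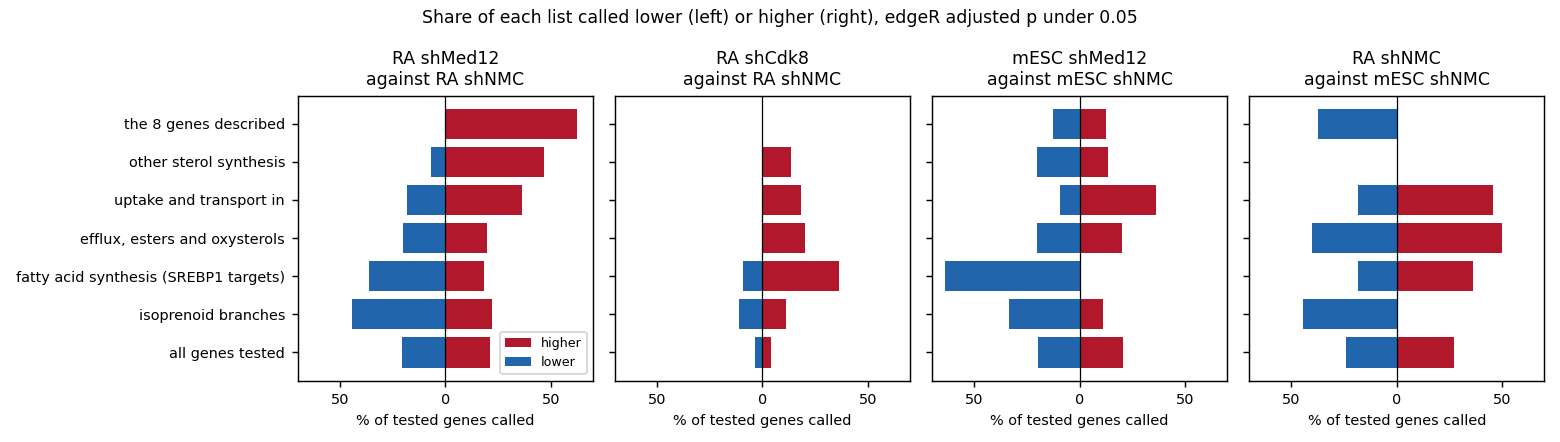
Percentage of the tested genes of each list called higher (right, red) or lower (left, blue) by edgeR at an adjusted p under 0.05, in 4 comparisons, with all genes tested at the bottom. In RA shMed12 against RA shNMC 62.5% of the 8 genes described and 46.7% of the 15 other synthesis genes are higher, against 21.3% of all genes; in mESC shMed12 63.6% of the fatty acid genes are lower.

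Uptake genes, 11 in all, were called in both directions, at shares to be read against those of all genes. In RA shMed12 against RA shNMC their log2 changes ran from -1.14 for Vldlr, a lipoprotein receptor that was called lower, to 1.38. In all 4 were higher and 2 lower in RA shMed12 against RA shNMC, or 54.5% called against 41.9% of all genes. In mESC shMed12 against mESC shNMC 4 were higher and 1 lower, or 45.5% against 40.5%. In RA shCdk8 against RA shNMC 2 were higher and 0 lower, or 18.2% against 7.73%. In RA shNMC against mESC shNMC 5 were higher and 2 lower, or 63.6% against 51.4%. Lipa, the lysosomal lipase that frees cholesterol from lipoprotein esters, was among the 5 higher in RA shNMC against mESC shNMC (log2 0.83).

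Fatty acid synthesis was followed in 11 known targets of the related factor SREBP1. In mESC shMed12 7 were lower and 0 higher, where 19.9% of all genes tested were lower and 20.6% higher, among them Acly (418 ± 49.7 CPM in mESC shMed12 and 705 ± 16.3 CPM in mESC shNMC, log2 -0.75), which makes cytosolic acetyl-CoA, Pnpla3 (-1.26), Fads1 (-0.53) and Acss2 (-0.73). After RA 4 were lower with shMed12, among them Elovl6 (-0.92), Acly (-0.87) and Pnpla3 (-0.83), and 2 higher, among them the desaturase gene Fads2 (1.10), where 20.6% of all genes were lower and 21.3% higher. With 1 library left out 4 to 6 were lower in mESC shMed12 and 4 after RA. With shCdk8 after RA 4 were higher, among them Scd2 (0.78), Fads2 (0.87) and Fads1 (0.50), and Elovl6 was lower (-0.57), where 4.10% of all genes were higher and 3.64% lower. The higher calls numbered 1 to 3 with 1 library left out.

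Genes of efflux, ester storage and oxysterols, 10 tested of 11, were followed too. RA in shNMC cells went with 5 higher and 4 lower, where 27.3% of all genes tested were higher and 24.1% lower, with Abca1, the efflux pump, lower (log2 -1.39) and Cyp27a1, an oxysterol-forming hydroxylase, higher (1.46). Abca1 was also lower with shMed12, after RA (-0.73) and in mESCs (-0.87), but higher with shCdk8, after RA (0.73) and in mESCs (0.86). With 1 library left out the list had 0 or 1 higher call in RA shCdk8, against 2 with all libraries, and 1 to 3 in mESC shCdk8, against 4. Of all genes tested 4.10% were called higher in RA shCdk8 against RA shNMC and 2.24% in mESC shCdk8 against mESC shNMC. With 1 library left out these shares were 1.76% to 2.93% and 0.699% to 1.08%. Soat1, which esterifies cholesterol, was higher with shMed12 in both states (0.89 after RA, 0.74 in mESCs). Of 5 genes of SREBP control, Scap was higher (0.55) and Insig2 lower (-0.44) in RA shMed12 against RA shNMC (21.3% of all genes higher, 20.6% lower), and Mbtps2, a protease that releases SREBPs, was higher in mESC shMed12 (0.34). RA in shNMC cells went with 4 of the 5 higher, Srebf1 (0.35), Scap (0.31) and Mbtps1 (0.21) among them, and Mbtps2 lower (-0.54), while 0 to 3 were higher with 1 library left out. Of 9 genes of isoprenoid branches 2 were higher and 4 lower in RA shMed12 against RA shNMC, among them Ggps1 (-0.63), the synthase of geranylgeranyl diphosphate, and 0 higher and 4 lower in RA shNMC against mESC shNMC. The first comparison called 41.9% of all genes and the second 51.4%.

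The 8 genes did not vary as one block. Over the 24 libraries the Pearson correlation of each gene's log2 CPM with the mean of the other seven was 0.87 for Cyp51, 0.80 for Lss, 0.69 for Sqle, 0.56 for Fdps and 0.53 for Srebf2. For Idi1 it was 0.46, for Hmgcs1 0.45 and for Insig1 0.27. Over the 18 libraries without mESC shRing1b and mESC control it was -0.41 for Insig1 and 0.20 to 0.67 for the others. These are descriptions, since the libraries share groups, depth and the split into 6 and 18. The mean of the 8 centred log2 CPM was -0.17, 0.33 and 0.81 in mESC shRing1b replicates 1, 2 and 3 and -0.37 to 0.14 in the other 21 libraries.

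Of 10982 other genes with a mean of at least 5 CPM, the 5 whose log2 CPM was most like that mean over the 24 libraries were Sc4mol (r = 0.86), the older symbol of the sterol methyl oxidase gene Msmo1, Stard4 (0.84), a sterol carrier, Rdh11 (0.82), Ing2 (0.81) and Grin1 (0.81). Over the 18 libraries the values were 0.69, 0.65, 0.83, 0.79 and 0.59 in the same order.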

How the data were processed

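Per the labels, libraries were strand-specific, made from poly-A RNA and read at 50 bp. The submitters' processing notes name build mm9 and, without roles, HTSeq 0.6.1p1, STAR 2.3.1z13, DESeq2 1.6.3, bcl2fastq 1.8.4 and SAMtools 1.2. For each library the authors deposited unnormalized counts by gene symbol. Left out of library sizes and tests were 5 entries that name no gene, of which reads with several alignments held 20.0% to 49.1% of the entries. Counts were filtered (filterByExpr by group, minimum count 10), TMM-scaled and tested with edgeR 4.0.16 in R 4.3.3, in a robust quasi-likelihood fit of all 24 libraries by group (common biological coefficient of variation 0.145, residual degrees of freedom 16). Across 14 comparisons the tests were two-sided, with Benjamini-Hochberg adjustment over all 16280 genes of a comparison and calls at 0.05. The SE was obtained as the log2 change over √F. Intervals are 95%. The self-test on simulated counts ran the same steps.

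Alternatives were median-ratio scaling, no filter, DESeq2 1.42.0, a fit of the groups compared alone, the replicate number as a block, and each library left out. Replicate numbers were checked by correlating residuals of same-numbered libraries. All 3 correlations passed 0.1, and the pairing comes from these data alone, for RA shCdk8 with mESC shCdk8 (0.169 to 0.371), RA shCdk8 with RA shNMC (0.287 to 0.537) and mESC shMed12 with mESC shCdk8 (0.157 to 0.339). Replicates of every group differed by more than counting noise (mean chi-square per gene 7.17 to 126), so none was counted as a repeat. The members and lists were chosen with earlier results of these data known. Named were all 8 members, the hairpin targets, up to 4 called genes of lowest p per list and comparison, and the 5 genes most like the members' mean. A few genes that this rule names are not reported here. Older symbols were used for Msmo1 (Sc4mol). Windows of 50 bases were compared with GENCODE vM21 transcripts.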

Additional observations from a re-analysis of the deposited data

Results flagged for a closer look

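For a pair of genes of the related lists the effect of shMed12 differed between states by the interaction test itself. They were 1 of 10 tested genes of efflux, esters and oxysterols and 1 of 11 of fatty acid synthesis. The other related lists, of 15, 5, 11 and 9 tested genes, had 0 calls. Of all genes tested 5.04% were called in this interaction, so the pair is not shown to exceed the share of all genes. Nceh1, which encodes a cholesteryl ester hydrolase, had an interaction (RA minus mESC) of -0.71 on the log2 scale (edgeR adjusted p = 0.00072), and passed with any 1 of the 12 libraries left out. Its level was 33.2 ± 0.21 CPM in RA shMed12 and 53.4 ± 1.5 CPM in RA shNMC, and 32.7 ± 1.8 CPM in mESC shMed12 and 32.1 ± 1.4 CPM in mESC shNMC (mean ± SD, n = 3). Elovl6, a fatty acid elongase, had an interaction of -0.56 (edgeR adjusted p = 0.048), a call lost in 10 of the 12 fits with 1 library left out (edgeR adjusted p up to 0.12). Its level was 227 ± 14.3 CPM in RA shMed12 and 430 ± 58.9 CPM in RA shNMC, and 310.2 ± 7.0 CPM in mESC shMed12 and 397 ± 13.3 CPM in mESC shNMC. Both genes belong to the related lists, not to the set of 8, and are named because they passed that test.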

How the results depend on the processing

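Of the changes of the 8 genes in the 14 comparisons, 45 passed in at least 1 fit. Over 507 refits of these, 411 kept the direction and the side of the threshold, 69 no longer passed, 27 newly passed and 0 turned their sign. The other 67 changes passed in no fit, and 50 of their 821 refits turned the sign, at log2 values of -0.24 to 0.19. Median-ratio scaling moved no count of members called. The fit of the groups compared alone moved most counts. It gave 5 lower in RA shNMC against mESC shNMC (3 over all libraries), 2 higher and 2 lower in RA shCdk8 against mESC shCdk8 (0 and 0), 2 higher in mESC shMed12 against mESC shNMC (1) and 1 lower in RA shMed12 against RA shNMC (0). It gave 1 higher in RA shCdk8 against RA shNMC (0), 2 higher in the interaction of shMed12 and RA (0), and 3 higher and 2 lower in mESC shMed12 against mESC shCdk8 (0 and 1). It gave 0 higher in mESC shRing1b against mESC control and 0 against mESC shNMC (5 and 5). Over all genes that fit called 9392 in RA shNMC against mESC shNMC (8363 of 16280 over all libraries). It called 9967 in RA shCdk8 against mESC shCdk8 (8422) and 8051 in mESC shMed12 against mESC shNMC (6594). In RA shMed12 against RA shNMC it called 8360 (6814), and in mESC shMed12 against mESC shCdk8 7428 (5833). The member counts are to be read against these calls. DESeq2 gave 1 higher in RA shCdk8 against RA shNMC (0), and with all 24 libraries the replicate block gave 1 there and 1 in the interaction of shMed12 and RA (Lss, edgeR adjusted p = 0.0062). Other counts of members stayed within 1.5 times under the block. The pairing is shown for 3 pairs of groups only; for the other comparisons the lowest correlation was -0.18 and the numbers may be shared in name alone. With 1 library left out the counts called higher ranged from 2 to 4 in RA shMed12 against RA shNMC, from 0 to 1 in RA shMed12 against mESC shMed12, from 0 to 1 in mESC shMed12 against mESC shNMC, from 1 to 5 in mESC shRing1b against mESC control and from 1 to 5 against mESC shNMC. The count called lower ranged from 1 to 4 in RA shNMC against mESC shNMC. Over all genes the groups-alone fit gave 2334 calls in mESC shCdk8 against mESC shNMC (596 over all libraries, 905 with the block and 1107 by DESeq2), 2744 in RA shCdk8 against RA shNMC (1259), 2237 in the interaction of shMed12 and RA (820, and 1250 by DESeq2), 38 in the interaction of shCdk8 and RA (6, 11 with the block and 27 by DESeq2), 0 in mESC shRing1b against mESC control (2459), 8 against mESC shNMC (3294) and 0 in mESC shNMC against mESC control (1). The causes were not tested. Counting depth limits Idi1 and Hmgcs1 most, with 39 and 58 counts in their lowest libraries.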

Other observations

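Lss and Srebf2 shared a pattern over the replicate numbers. In 7 of 8 groups replicate 3 had the highest CPM of Lss, and in 7 of 8 groups that of Srebf2, with mESC control as the exception for both genes. For the other 6 genes replicate 3 was highest in 2 to 4 of the 8 groups. The labels do not say what a replicate number stands for.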
